A study of Mus musculus with 16 samples.

Results

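The mRNAs of the mitochondrial ribosomal proteins were followed in mouse embryonic stem cells with and without Dgcr8. The genes were chosen by name: every row of the deposited expression table whose Ensembl identifier carries a mouse symbol made of Mrpl (large subunit) or Mrps (small subunit), a number and at most 1 further letter. This gave 77 genes of the 41202 identifiers in the table. Mrpl33 fits the naming rule but is not analysed here. Wild-type cells (v65) and Dgcr8-/- cells (ES1), both labelled as strain 129/C57BL/6 at passages 9-11, were kept in 2iL, whose inhibitors of MEK and GSK3, together with LIF, hold the cells in naive pluripotency. Cells of both genotypes were also taken after 48 h in N2B27 with bFGF and KSR, in which they leave that state. Each of the 4 groups held 2 libraries, so 8 libraries were compared. Each genotype was a single cell line, so line and genotype cannot be told apart. The series also holds small RNA of wild-type cells, which is not used here.

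Mitochondrial ribosomes translate the few mRNAs of the mitochondrial genome, all of which encode subunits of the respiratory chain and ATP synthase. Their rRNAs are made inside the organelle, whereas all their proteins are encoded in the nucleus, made in the cytoplasm and imported. Many of these proteins descend from bacterial ribosomal proteins, and others were added in the mitochondrial lineage. Dgcr8 is the RNA-binding partner of Drosha, and the pair releases most miRNA precursors from their transcripts.

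Expression was given as FPKM (fragments per kilobase of transcript scaled to the mapped total), which allows levels to be compared between genes. Differences are log2 differences of FPKM + 1 with their standard error, from limma fitted on the 13166 genes that reached 1 FPKM in 2 or more libraries. A difference was called when its Benjamini-Hochberg adjusted p over those genes was below 0.05. All 77 genes passed this filter, and the lowest single value among them was 7.02 FPKM. The p-values measure the spread between the 2 libraries of a group. That spread was pooled over the 4 groups for each gene and moderated across genes. Standard errors are therefore not particular to the groups compared. The design text calls the 2 libraries of a group biological replicates, but does not say what was repeated, so part of that spread may be technical only. In bulk RNA, fewer cells of a type and less RNA per cell cannot be told apart.

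Dgcr8 itself lay between 18.3 and 20.9 FPKM in the wild-type libraries and between 7.8 and 9.33 FPKM in the knockout libraries. It was lower in every knockout library but not absent, and which exons the allele lacks is not given in the sources used here. FPKM summed to 475200 to 548390 per library. The absolute read depth is unknown, and the steps between low values put the libraries at 1 to 1.48 times the depth of the shallowest one, which was replicate 1 of the knockout in 2iL. The pluripotency factor Pou5f1 lay at 695 to 990 FPKM in all libraries. Of 11 markers of pluripotent cells, 3 were higher and 4 lower in the knockout in 2iL, and 8 were higher and 3 lower at 48 h (medians -0.11 and 1.68). The list is mixed: 4 of the 11 rose and 7 fell by 48 h in wild-type cells. Differences between the genotypes at 48 h ran from -1.85 to 3.18, so the median describes no single cell state. Nanog, a factor of naive cells, was at 5.38 and 5.31 FPKM in wild-type and 56.1 and 56.7 in knockout cells at 48 h. The genotypes thus differed in these markers at 48 h beside every difference given for that time, and their part in it was not tested. Of 10 fibroblast and feeder cell markers 4 passed the filter (Thy1, Tagln, Acta2 and Dcn), and 0 of 6 primitive endoderm markers did. The fibroblast markers summed to 2.29 to 3.16 FPKM in 2iL, 22.9 to 23.8 FPKM in wild-type cells at 48 h and 19.1 to 19.2 FPKM in the knockout at 48 h. These sums hide opposite differences. Of the 4 tested, 1 was higher and 3 were lower in the knockout at 48 h, with log2 differences from -2.41 to 2.16. From 2iL to 48 h, 4 of the 4 tested were called higher in wild-type cells and 3 in the knockout. Postn, 1 of the listed markers that did not pass the filter, was at 0 in 7 of the 8 libraries.

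Mitochondrial ribosomal protein mRNAs were lower in the knockout as a group. Their summed level was 4470 and 4461 FPKM in the wild-type 2iL libraries and 4414 and 4331 FPKM in the wild-type 48 h libraries. In the knockout the sum was 3161 and 3481 FPKM in 2iL and 3247 and 3149 FPKM at 48 h. All 4 knockout libraries lay below all 4 wild-type libraries, and within a genotype the 2 states overlapped or lay close together. The members took 0.812 to 0.815% of all FPKM in wild-type libraries and 0.66 to 0.68% in knockout libraries. The median member lay at 45.5 to 49.8 FPKM in wild-type libraries and at 36.7 to 39.8 FPKM in knockout libraries.

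**Figure D1:**
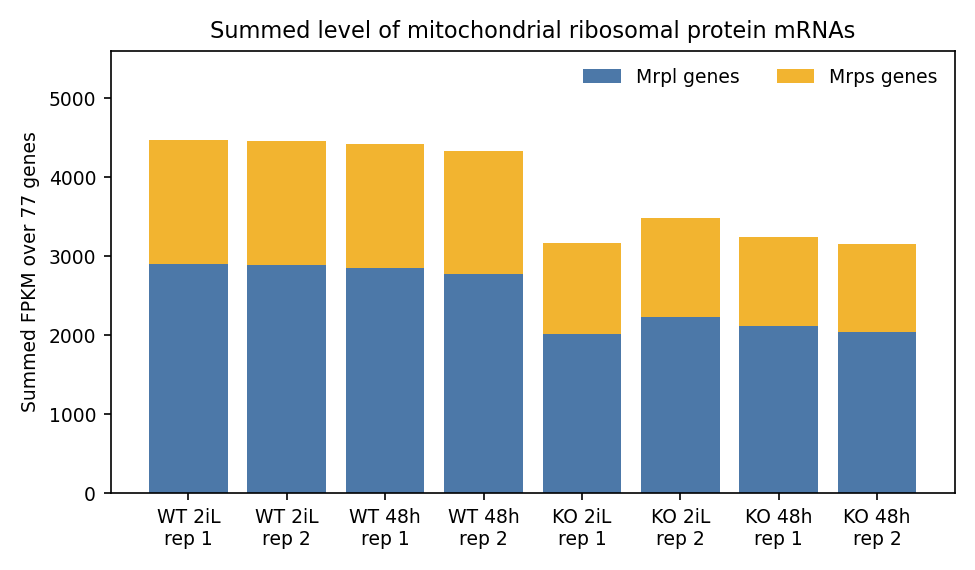
Summed FPKM of the 77 genes in each of the 8 libraries (y axis, linear from 0), split into Mrpl genes (blue) and Mrps genes (yellow). The 4 wild-type bars reach 4331 to 4470 FPKM and the 4 knockout bars 3149 to 3481 FPKM.

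The levels spanned more than an order of magnitude between genes. By mean over the 8 libraries, the most abundant were Mrpl17 at 225 FPKM, Mrpl15 at 114, Mrpl52 at 103, Mrps5 at 101 and Mrpl51 at 93.2 FPKM. The least abundant were Mrpl57 at 9.22 FPKM, Mrpl35 and Mrpl1 at 11 each, Mrpl11 at 17.7 and Mrps33 at 18.4 FPKM. Nearly every protein is present once per ribosome, with the stalk protein Mrpl12 as the known exception. The mRNA of Mrpl12 averaged 76.9 FPKM and was not among the 5 most abundant.

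In 2iL, 57 of the 77 mRNAs were lower in the knockout than in wild-type cells, 3 were higher and 17 were not called. Over all tested genes, 32.8% were lower and 30.6% were higher by the same rule, 63.4% in all. The median difference of the members was -0.40 on the log2 scale, against -0.02 over all tested genes. At 48 h, 56 members were lower, 6 were higher and 15 were not called, against 38.5% lower and 33.3% higher over all tested genes, 71.8% in all. The members' median difference was then -0.42, against -0.05 over all tested genes. Most of the differences were moderate. In 2iL, 19 members were lower by at least 1.5-fold and 5 by at least 2-fold (13.6% and 4.43% of all tested genes), and at 48 h the counts were 23 and 9 (19.9% and 8.42%). With FPKM rescaled to TPM the 2iL split was 48 lower and 10 higher, against 25.5% lower and 38.9% higher over all tested genes. At 48 h as TPM it was 46 lower and 11 higher, against 30.3% and 40.7%. That rescaling moved the median of all tested genes to 0.10 in both states. Relative to all tested genes the members' median was -0.37 as deposited in both states and -0.35 (2iL) and -0.36 (48 h) as TPM. TPM scaling shifts all genes of a library nearly alike, so this value could hardly move. After quantile scaling, which does not, it was -0.28 (2iL) and -0.27 (48 h).

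Most members that were low in 1 state were low in the other. Of the 57 lower in 2iL and the 56 lower at 48 h, 50 were in both sets, where 24.4% of all tested genes were lower in both. Mrpl17 and Mrps28 were higher in both states (21.4% of all tested genes were). Mrpl27 was called in opposite directions (5.51% of all tested genes were), and 8 members were called in neither state (16.1%): Mrpl35, Mrpl37, Mrpl41, Mrpl48, Mrps2, Mrps6, Mrps33 and Mrps35. The sign was the same in 71 of 77. Across the 77 genes the 2 sets of differences had a Pearson correlation of 0.818 (Spearman 0.757). They share no library, but the same pair of lines, and genes are not independent replicates. For 51 members every knockout library lay below every wild-type library (23.8% of all tested genes), and for 2 every knockout library lay above (19.7%).

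**Figure D2:**
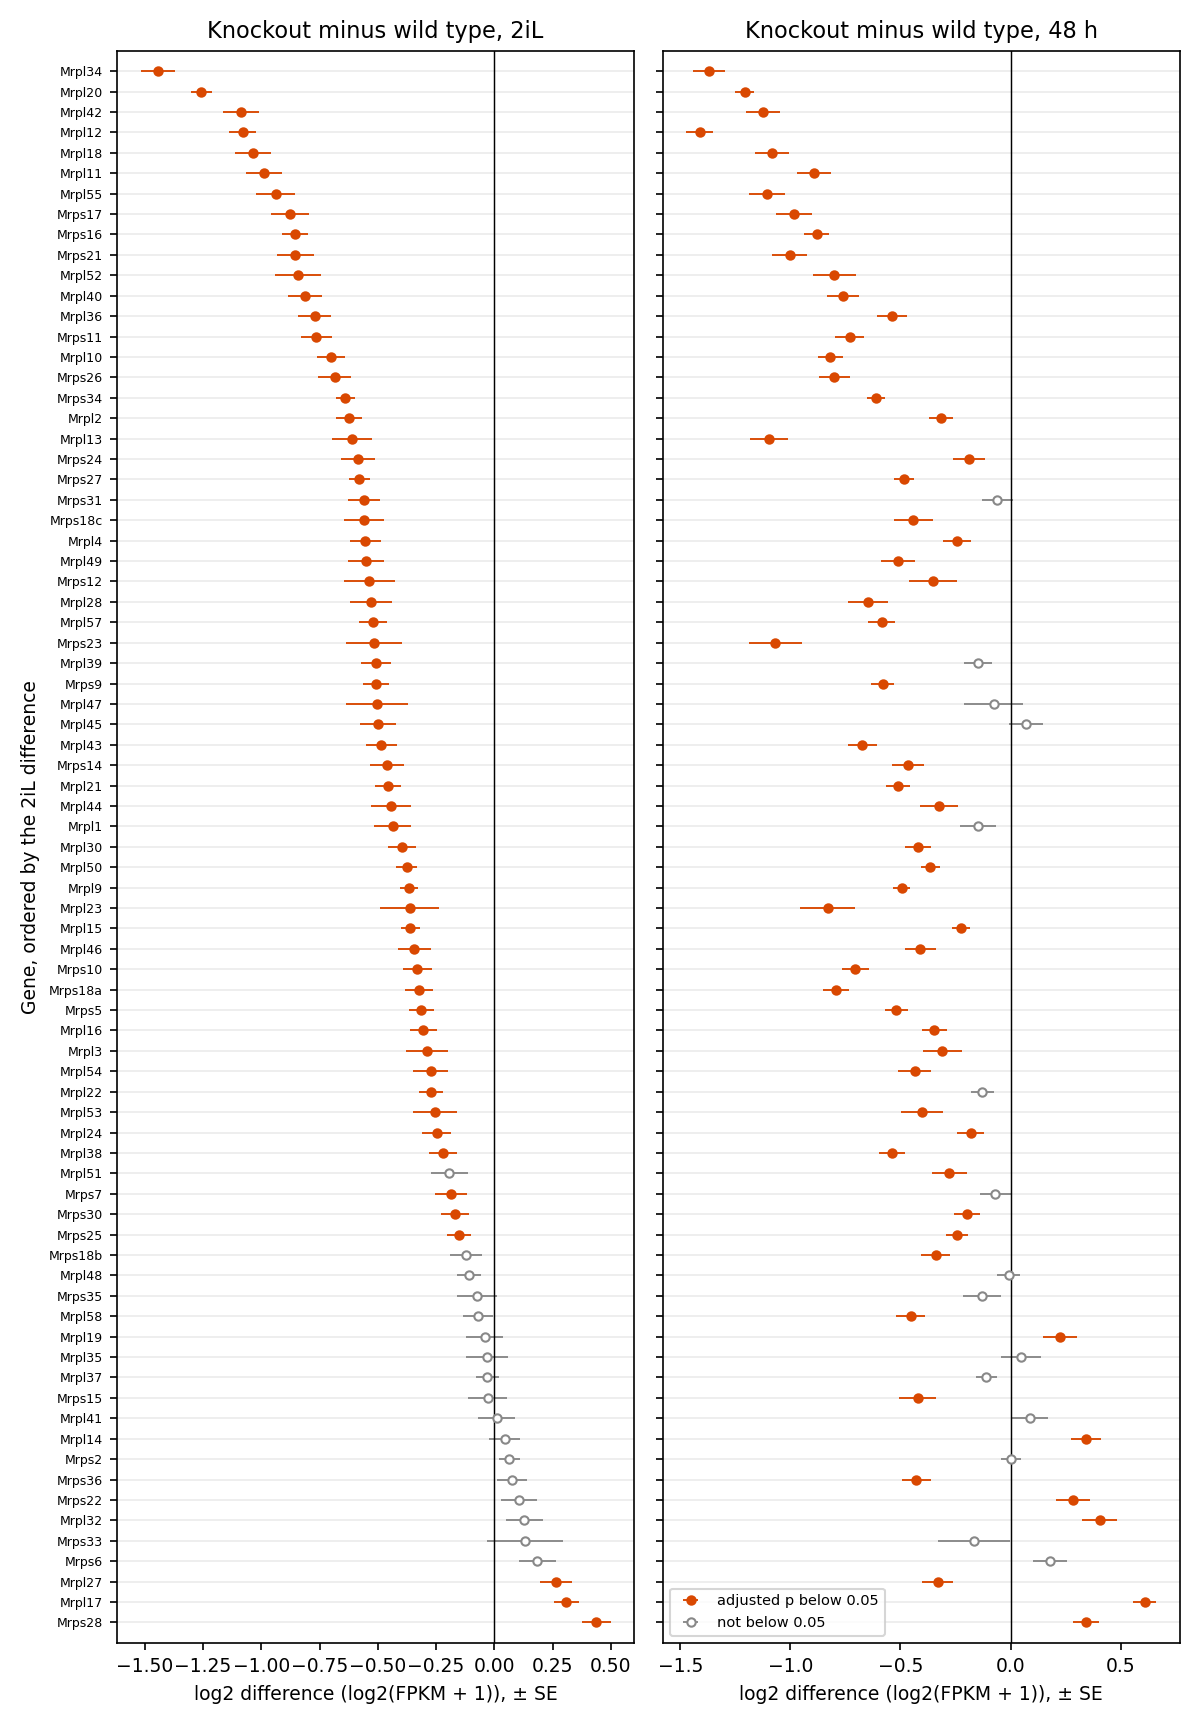
Knockout minus wild-type difference of each of the 77 genes (x axis, log2 of FPKM + 1, bars ± SE) in 2iL (left) and at 48 h (right), genes ordered by the 2iL difference. Filled orange points have an adjusted p below 0.05, with 57 lower and 3 higher in 2iL, and 56 lower and 6 higher at 48 h.

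Mrpl34, a small large-subunit protein with a bacterial counterpart, showed the largest difference in 2iL. The wild type stood at 119 and 124 FPKM in 2iL, then at 144 and 134 at 48 h, whereas the knockout held 41.2 and 47 in 2iL, then 55.2 and 51.3 at 48 h. Its libraries lay far below the wild-type libraries in both states, with no overlap. The knockout was 2.72-fold lower in 2iL (log2 difference -1.44 ± 0.07, limma adjusted p = 5.48e-06) and 2.58-fold lower at 48 h (-1.37 ± 0.07, adjusted p = 3.33e-06).

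Mrpl20 is the counterpart of a bacterial protein needed early in the assembly of the large subunit. It was at 105 and 105 FPKM in wild-type 2iL, 125 and 123 at 48 h, 41.9 and 44.8 in knockout 2iL and 54.2 and 52.2 at 48 h. It rose from 2iL to 48 h in both genotypes, and all 4 knockout libraries stayed below all 4 wild-type libraries. The difference was -1.26 ± 0.05 in 2iL (limma adjusted p = 1.84e-06) and -1.21 ± 0.05 at 48 h (adjusted p = 7e-07).

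Mrpl12, the flexible stalk protein that recruits translation factors and has also been described as a partner of the mitochondrial RNA polymerase, was at 112 and 108 FPKM in wild-type 2iL and 108 and 105 at 48 h. In the knockout it was at 48.4 and 54.6 FPKM in 2iL, then at 39.8 and 39.2 after 48 h. Wild-type libraries held one level in both states, and knockout libraries were lower still at 48 h. The difference was -1.08 ± 0.06 in 2iL (limma adjusted p = 7.82e-06) and -1.41 ± 0.06 at 48 h (adjusted p = 1.18e-06), the largest of the 77 at that time.

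Mrpl42, a protein added in the mitochondrial lineage, was at 139 and 126 FPKM in wild-type 2iL, 116 and 111 at 48 h, 57.5 and 66.8 in knockout 2iL and 51.4 and 51.2 at 48 h. It was lower at 48 h than in 2iL in both genotypes, and no knockout library reached a wild-type level. The difference was -1.09 ± 0.08 in 2iL (limma adjusted p = 2.28e-05) and -1.13 ± 0.08 at 48 h (adjusted p = 1.13e-05). Mrpl18 of the central protuberance, the crest of the large subunit that contacts tRNA, differed by -1.04 ± 0.08 and -1.08 ± 0.08. Mrpl18 overlaps Tcp1 in the annotation, and the strand setting of the quantification is not given in the sources used here. Reads from the stretch they share therefore cannot be told apart. The same holds for 24 of the 77 genes, which overlap some other RefSeq gene, and 6 RefSeq entries are named as pseudogenes of this family. Mrpl55, at 42.4 and 43.4 FPKM in wild-type 2iL and 20.5 and 23.4 in the knockout, completed the 5 largest differences at 48 h with -1.11 ± 0.08.

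The upstream promoter sequences of 4 of these genes are shown because these genes moved together or apart: Mrpl34, Mrpl12 and Mrpl20 are among the genes with the largest deficit in the knockout, and Mrpl17 was the most abundant member and was higher there. They were chosen after their values were seen. Each is the 250 bases before the annotated start, 5′ to 3′ on the gene's strand, from RefSeq on GRCm38.p6, the assembly called mm10 by the submitters. Capitals mark matches, on either strand, to 4 short motifs searched for: GCGCA, any base and GCGC (NRF1, a nuclear regulator of genes for mitochondrial proteins), CCGGAAG (the ETS family, which holds GABP, another such regulator), AAGATGGCG (YY1) and CACGTG (the E-box bound by Myc and related factors). None of the 4 motifs contains another.
Mrpl34: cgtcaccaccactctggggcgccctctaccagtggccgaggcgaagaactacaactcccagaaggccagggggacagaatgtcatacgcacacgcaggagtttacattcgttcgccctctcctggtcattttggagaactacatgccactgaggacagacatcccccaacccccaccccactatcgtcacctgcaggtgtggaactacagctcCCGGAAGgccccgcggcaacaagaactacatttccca
Mrpl12: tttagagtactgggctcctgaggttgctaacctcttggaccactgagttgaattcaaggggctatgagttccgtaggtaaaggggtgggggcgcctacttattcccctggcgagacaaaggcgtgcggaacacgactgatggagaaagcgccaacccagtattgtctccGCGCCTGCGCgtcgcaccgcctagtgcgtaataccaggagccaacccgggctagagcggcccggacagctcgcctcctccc
Mrpl20: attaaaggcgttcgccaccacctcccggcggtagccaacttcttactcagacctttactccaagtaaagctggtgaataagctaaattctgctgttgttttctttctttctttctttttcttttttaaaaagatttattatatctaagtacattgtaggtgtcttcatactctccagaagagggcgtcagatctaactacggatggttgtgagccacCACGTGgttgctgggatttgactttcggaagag
Mrpl17: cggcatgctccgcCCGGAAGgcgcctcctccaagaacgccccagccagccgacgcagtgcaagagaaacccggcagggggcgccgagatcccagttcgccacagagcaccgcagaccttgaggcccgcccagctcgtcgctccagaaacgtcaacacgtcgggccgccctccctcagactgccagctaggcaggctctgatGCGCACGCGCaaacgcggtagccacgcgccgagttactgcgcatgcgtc
Mrpl34 lies at chr8:71464676-71464925 on the plus strand and holds the ETS letters at base -37 from the start. Mrpl12 lies at chr11:120484387-120484636 on the plus strand and holds the NRF1 letters at -81. Mrpl20 lies at chr4:155802628-155802877 on the plus strand and holds the E-box at -33. Mrpl17 lies at chr7:105811088-105811337 on the minus strand and holds NRF1 letters at -49 and ETS letters at -237. A match describes the letters and is not evidence of binding.

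A promoter entry of 300 bases (250 before and 50 after the start) was found for 68 of the 77 genes. Mrps28, Mrps35, Mrpl4, Mrpl54, Mrpl15, Mrpl38, Mrps34, Mrpl19 and Mrpl13 had none. The ETS letters were in 25 of the 68 (36.8%), against 20.7% of the 9684 tested genes with an entry and 9.93% of all 27025. The NRF1 letters were in 13 (19.1%, against 11.7% and 5.19%), the YY1 letters in 8 (11.8%, against 3.75% and 1.64%) and the E-box in 5 (7.35%, against 12.0% and 8.09%). Within the family, the medians of members with and without a motif were close for ETS in both states and for NRF1 at 48 h. The median difference in 2iL was -0.46 for the 25 genes with ETS letters and -0.44 for the 43 without, and for NRF1 it was -0.50 with and -0.38 without. At 48 h these medians were -0.45 and -0.41 for ETS, and -0.42 and -0.42 for NRF1. The 8 genes with YY1 letters had a median of -0.58 in 2iL against -0.42 for the 60 without, and the 5 with an E-box -0.62 against -0.40 for the 63 without. At 48 h the medians were -0.51 and -0.42 for YY1, and -0.44 and -0.42 for the E-box. None of these differences was tested.

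Many of these genes share their upstream region with a neighbour read in the other direction. A divergent start within 1000 bases was annotated for 26 of 68 (38.2%), against 19.8% of tested genes and 12.3% of all genes with an entry. In 24 of these both genes were tested. In 2iL the member was lower in the knockout in 17, and the neighbour was also lower in 14 of them (82.4%) and higher in 0. Over all tested genes with a tested divergent neighbour, 503 were lower, with the neighbour lower in 52.9% and higher in 12.7%. At 48 h the member was lower in 18, and the neighbour was lower in 13 (72.2%) and higher in 3 (16.7%), against 56.5% and 15.5% for the 563 lower genes overall. Each end of a pair is counted once, so Mrpl46 and Mrps11, a pair of members, enter from each side. Among the neighbours lower in 2iL, Tcp1, Klc4, Twnk and Ska3 also overlap their member in the annotation. Reads from the stretch shared by such a neighbour and its member cannot be told apart. The difference from other pairs was not tested. Mrpl46 and Mrps11, whose starts lie 42 bases apart on chromosome 7, are both members and were both lower in both states. Their differences were -0.34 ± 0.07 and -0.76 ± 0.07 in 2iL. Mrps12, the decoding-centre protein, shares such a region with Sars2, the mitochondrial seryl-tRNA synthetase. At 48 h Mrps12 differed by -0.35 ± 0.11 and Sars2 by 0.16 ± 0.06 (limma adjusted p = 0.0223 and 0.0462). The Mrps12 call was lost without replicate 2 of the knockout at 48 h (adjusted p = 0.11) or replicate 1 of the wild type at 48 h (adjusted p = 0.1). It was also lost as TPM, where the difference was -0.19 (adjusted p = 0.0751), and with no expression filter (adjusted p = 0.0576).

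Both subunits and both evolutionary classes were lower in the knockout. Of 28 large-subunit proteins with a bacterial counterpart, 22 were lower and 2 higher in 2iL, and 20 lower and 4 higher at 48 h. Of 22 large-subunit proteins added in mitochondria, 17 were lower and 0 higher in each state. Of 16 small-subunit proteins with a bacterial counterpart, 12 were lower and 1 higher in each state. Of 10 small-subunit proteins added in mitochondria, 6 were lower and 0 higher in 2iL, and 6 lower and 1 higher at 48 h. Their medians ran from -0.33 to -0.48 in 2iL and from -0.29 to -0.45 at 48 h. As TPM the 22 stood at 13 lower and 1 higher in 2iL and 14 lower and 3 higher at 48 h, and the 16 at 11 lower and 3 higher in 2iL and 10 lower and 3 higher at 48 h. All 4 medians stayed below 0 under each of the 3 other scalings, but some moved. At 48 h as TPM the median was -0.13 for the 10 and -0.18 for the 28, and in 2iL it was -0.19 as TPM and -0.17 after quantile scaling for the 10. For the 22 and the 16 it was -0.22 and -0.34 in 2iL, and -0.27 and -0.29 at 48 h, as TPM. Mrps18a was counted among the 22 and Mrps18b among the 10, although both are homologues of a bacterial protein. Mrps36, now better known as part of the oxoglutarate dehydrogenase complex, was put in no class.

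All 5 proteins of the stalk, the arm of the large subunit that binds translation factors, were lower in both states, with medians of -0.70 in 2iL and -0.82 at 48 h (3 of 5 in 2iL as TPM, with a median of -0.56). Mrpl11, at the base, was at 22.9 and 22.6 FPKM in wild-type 2iL and 10.2 and 11.8 in knockout 2iL, and differed by -0.99 ± 0.08. Mrpl10, which holds the Mrpl12 copies, was at 36.1 and 36 FPKM and 20.6 and 23, and differed by -0.70 ± 0.06. Neither gene overlapped between the genotypes. Mrpl53, at 44.4 and 39.7 FPKM and 32.1 and 38.3, was the weakest of the 5 in 2iL with -0.26 ± 0.09 (limma adjusted p = 0.0486). Its adjusted p was 0.245 without replicate 1 of the knockout in 2iL, 0.232 without replicate 1 of the wild type in 2iL and 0.281 as TPM (difference -0.11). It was 0.0554 to 0.0713 without any single library at 48 h, and 0.0736 to 0.154 under the other 2 scalings. Of 5 proteins of the central protuberance 4 were lower in each state, and Mrpl48 was not called in either.

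Proteins at the rim of the exit tunnel, where the new chain leaves the ribosome, were lower mainly in 2iL. Of the 8 listed proteins 7 were lower and 1 higher in 2iL, and 3 were lower and 1 higher at 48 h, with medians of -0.40 and -0.14. As TPM 1 was lower and 2 were higher at 48 h, with a median of 0.02. The difference between the states was not tested for the list. Mrpl45, which ties the ribosome to the inner membrane, was at 49.2 and 47.2 FPKM in wild-type 2iL, 37 and 34.3 at 48 h, 31.3 and 36.5 in knockout 2iL and 37.3 and 37.6 at 48 h. The wild type was well above the knockout in 2iL and just below it at 48 h, where the difference was not called (0.07 ± 0.08, limma adjusted p = 0.433). As TPM the knockout was called higher at 48 h (adjusted p = 0.00636). Mrpl44, an RNase III-like protein of the large subunit, differed by -0.44 ± 0.09 in 2iL and -0.32 ± 0.09 at 48 h. The 48 h call for Mrpl44 was lost without replicate 2 of the knockout at 48 h (adjusted p = 0.0596), without replicate 1 of the wild type at 48 h (adjusted p = 0.0673) and as TPM (adjusted p = 0.0514).

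Mrpl17 went the other way. This neighbour of the exit tunnel was at 220.1 and 223 FPKM in wild-type 2iL, 160.3 and 158 at 48 h, 266 and 283 in knockout 2iL and 254 and 233 at 48 h. All knockout libraries lay above all wild-type libraries. The difference was 0.31 ± 0.05 in 2iL (limma adjusted p = 0.00153) and 0.61 ± 0.05 at 48 h (adjusted p = 3.45e-05), when the wild-type level had fallen.

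Mrps28, a small-subunit protein related to bacterial S1, was at 46 and 45.5 FPKM in wild-type 2iL, 48.4 and 44.4 at 48 h, 60.5 and 64.2 in knockout 2iL and 61.3 and 56.9 at 48 h. No library of one genotype reached the other. The difference was 0.44 ± 0.06 in 2iL (limma adjusted p = 0.000544) and 0.34 ± 0.06 at 48 h (adjusted p = 0.00151). Mrps28 overlaps 3 predicted RefSeq genes.

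The other calls of higher levels were made in 1 state only. At 48 h Mrpl32, whose maturation by an inner-membrane protease is needed for ribosome assembly, was at 29.6 and 31.8 FPKM in wild-type and 42.2 and 39.9 in knockout cells (0.41 ± 0.08, limma adjusted p = 0.00261). Mrpl14 was at 35.4 and 36.4 FPKM in wild-type and 45 and 46.6 in knockout cells (0.34 ± 0.07), and it overlaps Tmem63b. Mrps22 was at 22.2 and 22.7 FPKM in wild-type and 28.6 and 26.5 in knockout cells (0.28 ± 0.08, adjusted p = 0.0134). Mrpl19 (0.22 ± 0.08) was the remaining one. The genotypes did not overlap in Mrpl32, Mrpl14 and Mrps22 at 48 h, which adds no support because these genes were named for their calls. The Mrps22 call was lost without replicate 1 of the knockout (adjusted p = 0.081) or of the wild type (adjusted p = 0.0618) at 48 h.

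**Figure D3:**
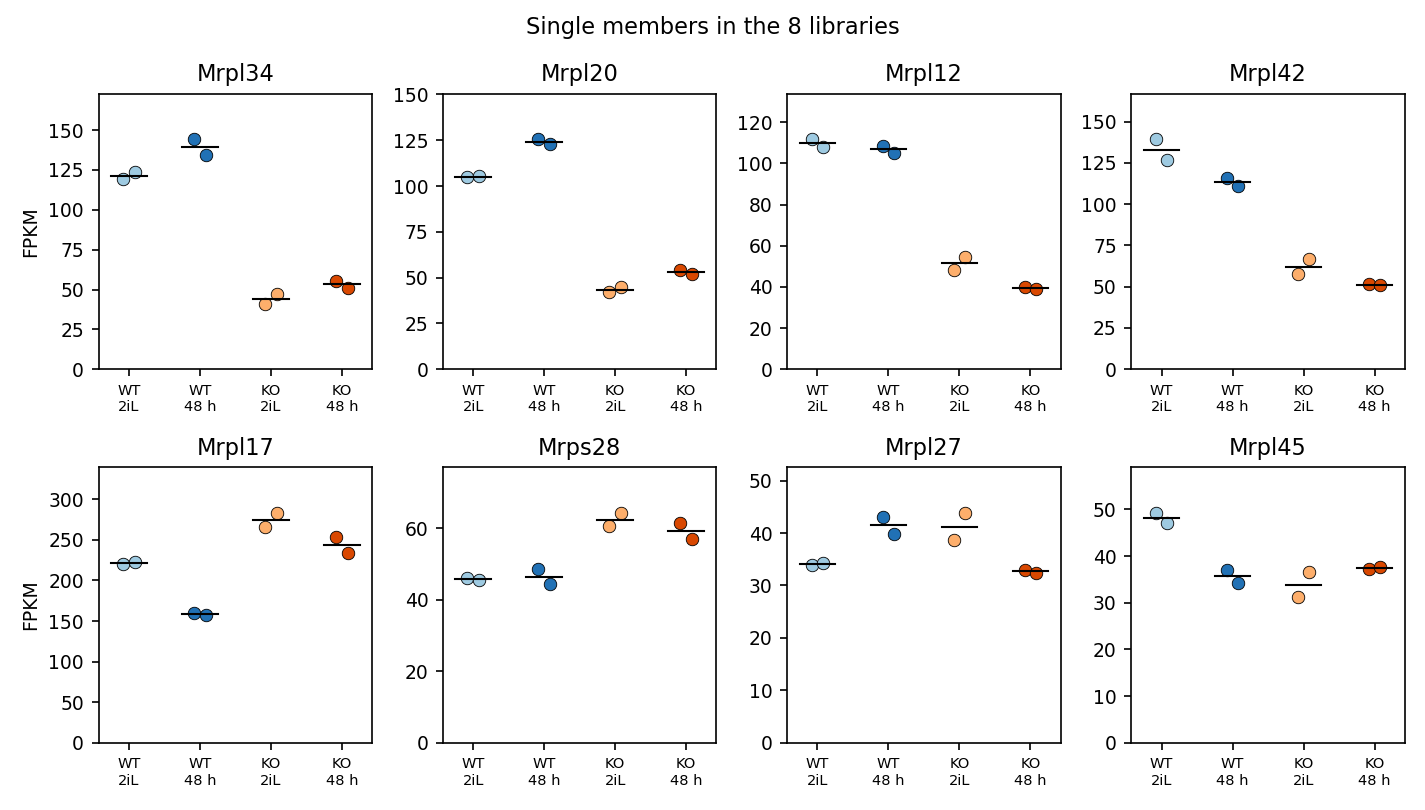
FPKM (y axes, linear from 0) of 8 genes in the 4 groups; points are single libraries and bars the mean of 2. Mrpl34, Mrpl20, Mrpl12 and Mrpl42 are lower in every knockout library, Mrpl17 and Mrps28 are higher in every one, and Mrpl27 and Mrpl45 change order between 2iL and 48 h.

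The 3 homologues of bacterial S18 behaved unequally. Mrps18c, a small-subunit protein, was at 91 and 91.5 FPKM in wild-type 2iL and 59.9 and 63.4 in the knockout (-0.56 ± 0.09). Mrps18b, also of the small subunit, was at 65.2 and 63.5 FPKM in wild-type 2iL and 55.1 and 63.3 in the knockout (-0.12 ± 0.07, limma adjusted p = 0.15), which was not called. Without replicate 2 of the knockout in 2iL it was (adjusted p = 0.00882). Mrps18a, which sits in the large subunit despite its name, was at 38.4 and 35.6 FPKM in wild-type 2iL and 28.1 and 30.6 in the knockout (-0.32 ± 0.06). At 48 h the order changed: the differences were -0.79 for Mrps18a, -0.44 for Mrps18c and -0.34 for Mrps18b, all called. Mrps30, another large-subunit protein named for the small one, differed little, by -0.17 ± 0.06 in 2iL and -0.20 ± 0.06 at 48 h (limma adjusted p = 0.0438 and 0.0213). As TPM its adjusted p was 0.809 and 0.636, and in 2iL it was 0.101 to 0.198 without replicate 1 or 2 of the knockout or replicate 2 of the wild type. At 48 h it was 0.129 without replicate 2 of the knockout and 0.132 without replicate 2 of the wild type.

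Changes from 2iL to 48 h were smaller than the differences between genotypes. In wild-type cells 16 members rose and 17 fell by 48 h, where 30.9% of all tested genes rose and 25.6% fell. None changed by 1.5-fold or more, and the median was -0.01, against 0.03 over all tested genes. The median was 0.01 as TPM and 0.03 after quantile scaling, so its sign depends on the scale. After median-ratio scaling 15 rose and 24 fell. Without replicate 2 of the wild type at 48 h, 11 rose and 10 fell.

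Among those that rose in wild-type cells was Mrpl23, an exit-tunnel protein, which went from 23.9 and 25 to 36.7 and 35 FPKM (0.54 ± 0.13, limma adjusted p = 0.00863). Mrpl58, a peptidyl-tRNA hydrolase that frees stalled ribosomes, went from 53.7 and 54.4 to 70.6 and 69.2 FPKM (0.37 ± 0.06, adjusted p = 0.00226). Neither overlapped between the states. Mrpl53 (0.42 ± 0.09), Mrps18a (0.39 ± 0.06) and Mrpl13 (0.38 ± 0.09) made up the 5 largest. The Mrpl53 call was lost without replicate 2 of the wild type in 2iL (adjusted p = 0.0511) or at 48 h (adjusted p = 0.0512).

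The largest fall was that of Mrps2, a small-subunit protein, from 43.2 and 42.9 to 30 and 30.9 FPKM in wild-type cells (-0.49 ± 0.04, limma adjusted p = 7.79e-05). It also fell in the knockout, from 43.9 and 46.2 to 30.3 and 30.7 FPKM (-0.55 ± 0.04, adjusted p = 6.53e-05). The genotypes overlapped at 48 h, and Mrps2 was one of the genes called in neither genotype comparison. Mrpl17 fell by 0.47 ± 0.05 in wild-type cells, Mrpl45 by 0.43 ± 0.08, Mrps12 by 0.40 ± 0.11 and Mrpl4, which lines the exit tunnel, by 0.38 ± 0.07. The Mrps12 call was lost without replicate 1 in 2iL (adjusted p = 0.0902) or replicate 2 at 48 h (adjusted p = 0.0835).

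In the knockout 9 members rose and 12 fell by 48 h, against 26.5% and 21.9% of all tested genes, and none by 1.5-fold or more. This split rested on single libraries and on the scale. Without replicate 1 of the knockout in 2iL, the shallowest library, 4 rose and 22 fell, and without replicate 2 there 16 rose and 9 fell. Without replicate 1 or 2 of the knockout at 48 h, 3 or 5 rose. As TPM 18 rose and 14 fell, and after median-ratio scaling 10 rose and 23 fell. The summed levels of these 2 libraries, given above, were further apart than those of any other group.

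Among the rises in the knockout was Mrpl48 of the central protuberance, from 41.3 and 42.8 to 57.2 and 52.5 FPKM (0.37 ± 0.05, limma adjusted p = 0.000947). It also rose in wild-type cells, from 44.8 and 46.2 to 54.4 and 55.8 FPKM (0.27 ± 0.05). Mrpl20 rose by 0.29 ± 0.05, Mrps27, an RNA-binding pentatricopeptide repeat protein, by 0.28 ± 0.04, Mrpl53 by 0.27 ± 0.09 and Mrpl34 by 0.27 ± 0.07. The Mrpl34 call was lost without replicate 1 in 2iL (adjusted p = 0.0764) or at 48 h (adjusted p = 0.11), and that for Mrpl53 without any library other than replicate 2 of the knockout in 2iL (adjusted p 0.0552 to 0.223).

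Of the falls in the knockout, that of Mrps2 was followed by Mrps15, from 46.4 and 53.4 to 39.1 and 35.4 FPKM (-0.41 ± 0.08, limma adjusted p = 0.00551). In wild-type cells Mrps15 was not called (-0.02 ± 0.08). Mrpl12 fell by 0.37 ± 0.06, Mrps9 by 0.37 ± 0.05 and Mrps23 by 0.35 ± 0.12. The Mrps23 call was lost without any library other than replicate 1 of the knockout in 2iL (adjusted p 0.0543 to 0.188). The fibroblast marker sum rose from 2iL to 48 h in both genotypes, as given above, and its part in these changes was not tested.

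Between the genotypes, 5 members rose in both and 5 fell in both, 3 moved in opposite directions and 36 were called in neither. Of all tested genes, 14.4% rose in both, 11.8% fell in both, 6.65% moved in opposite directions and 28.0% were called in neither. Across the 77 genes the 48 h changes of the 2 genotypes, which share no library, had a Pearson correlation of 0.351 (Spearman 0.358). The difference between the changes was tested as an interaction. It was called with a positive sign for 8 members and with a negative sign for 10, against 21.1% and 21.7% of all tested genes. Without replicate 2 of the wild type in 2iL or replicate 1 of the wild type at 48 h the counts were 5 and 6. Without replicate 2 of the wild type at 48 h 3 were positive, without replicate 1 of the knockout at 48 h 4 were, and without replicate 2 there 6 were negative.

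**Figure D4:**
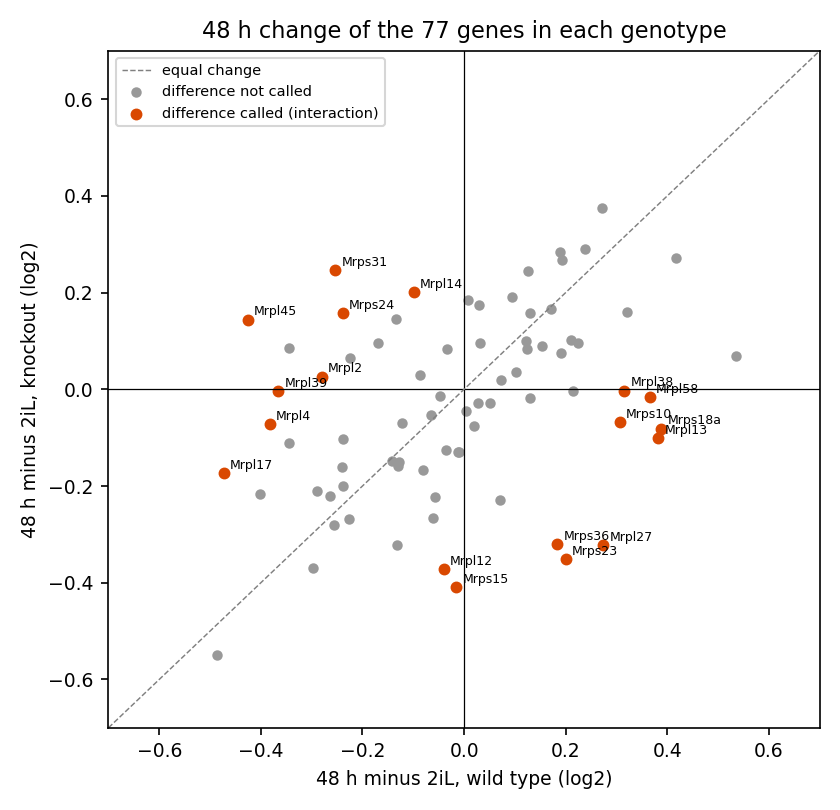
Change from 2iL to 48 h of the 77 genes in wild-type cells (x axis) and in the knockout (y axis), both as log2 differences of FPKM + 1; the dashed line marks equal change. The 18 named orange points have a called difference between the genotypes, 8 above the line and 10 below it, and every gene lies within a 1.5-fold change on both axes.

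Mrpl45 had the largest positive interaction, 0.57 ± 0.11 (limma adjusted p = 0.00506), from a fall in wild-type cells and a change of 0.14 ± 0.08 in the knockout. Mrps31, a small-subunit protein added in mitochondria, went from 34.3 and 35.8 to 29.7 and 28.8 FPKM in wild-type cells and from 22.2 and 24.8 to 29.3 and 26.8 in the knockout (0.50 ± 0.10, adjusted p = 0.00552). The genotypes differed in 2iL and overlapped at 48 h. Mrps24 followed with 0.40 ± 0.10, then Mrpl39, related to threonyl-tRNA synthetase, with 0.36 ± 0.09, and Mrpl4 with 0.31 ± 0.09. Calls were lost for Mrps24 without replicate 2 at 48 h of the knockout (adjusted p = 0.0611) or wild type (adjusted p = 0.059), and for Mrpl39 without replicate 1 of the knockout (adjusted p = 0.0567) or replicate 2 of the wild type (adjusted p = 0.0502) at 48 h. That for Mrpl4 was lost without any single wild-type library (adjusted p 0.0614 to 0.0925) and without replicate 1 of the knockout in 2iL (adjusted p = 0.0776) or at 48 h (adjusted p = 0.0875).

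Mrpl27, which lies close to the peptidyl transferase centre, had the largest negative interaction. It went from 33.8 and 34.3 to 43.1 and 39.8 FPKM in wild-type cells and from 38.6 and 43.8 to 33 and 32.4 in the knockout (-0.60 ± 0.10, limma adjusted p = 0.00249). The knockout was thus above the wild type in 2iL (0.26 ± 0.07) and below it at 48 h (-0.33 ± 0.07), with no overlap in either state. The 2iL call was lost without replicate 1 of the wild type in 2iL (adjusted p = 0.0541). Mrpl27 overlaps Eme1.

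Mrps23 was at 81.4 and 93.2 FPKM in wild-type 2iL, 96.3 and 104 at 48 h, 53.1 and 69 in knockout 2iL and 48.3 and 46.2 at 48 h (-0.55 ± 0.17, limma adjusted p = 0.0359). Mrps36 went from 28.2 and 31.3 to 23.8 and 23.5 FPKM in the knockout and from 29.3 and 27.1 to 33 and 31.3 in wild-type cells (-0.50 ± 0.09, adjusted p = 0.00461). Mrpl13 (-0.48 ± 0.12) and Mrps18a (-0.47 ± 0.09) rose in wild-type cells while the knockout changed by -0.10 and -0.08. For Mrps23 the interaction was lost without replicate 1 (adjusted p = 0.0715) or 2 (adjusted p = 0.0976) of the knockout at 48 h, replicate 1 of the wild type in 2iL (adjusted p = 0.112), or replicate 1 (adjusted p = 0.059) or 2 (adjusted p = 0.106) of the wild type at 48 h. For Mrpl13 it was lost without replicate 1 of the knockout at 48 h (adjusted p = 0.0588), replicate 2 of the wild type in 2iL (adjusted p = 0.0531) or replicate 1 of the wild type at 48 h (adjusted p = 0.0529). Mrps23 overlaps Cuedc1 and Mrps18a overlaps Rsph9.

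Other genes of mitochondrial translation were lower in large part as well. The counts below stand beside 32.8% lower and 30.6% higher of all tested genes in 2iL, and 38.5% and 33.3% at 48 h. As TPM these shares were 25.5% and 38.9% in 2iL, and 30.3% and 40.7% at 48 h. Of 5 ribosomal proteins that the naming rule leaves out, 4 were lower in the knockout in each state. Aurkaip1 was at 85.6 and 91.9 FPKM in wild-type 2iL and 44.3 and 53.8 in the knockout (-0.85 ± 0.09), whereas Dap3, a core small-subunit GTP-binding protein, was at 82.5 and 77.5 FPKM in wild-type 2iL and 70.1 and 75.6 in the knockout (-0.13 ± 0.05, limma adjusted p = 0.0546), which was not called. Of 21 assembly and rRNA modification factors, 14 were lower and 2 higher in 2iL, and 15 lower and 0 higher at 48 h (medians -0.45 and -0.34). As TPM the 5 stood at 3 lower and 1 higher, and the 21 at 12 lower and 2 higher, at 48 h. Gtpbp10, a GTPase of large-subunit assembly, differed by -1.22 ± 0.09 and -1.61 ± 0.09.

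Of 16 translation factors and mRNA-binding partners, 10 were lower and 0 higher in 2iL, and 13 lower and 1 higher at 48 h (medians -0.41 and -0.32). As TPM 7 were lower and 2 higher at 48 h. Gfm2, a factor that splits ribosomes after termination, was at 21.8 and 21.2 FPKM in wild-type 2iL and 12.7 and 12.4 in the knockout (-0.73 ± 0.05). The 20 aminoacyl-tRNA synthetases and related enzymes were mixed, with 8 lower and 4 higher in 2iL and 7 lower and 5 higher at 48 h. Of 16 genes of mitochondrial DNA maintenance and transcription, 9 were lower and 0 higher in 2iL, and 8 lower and 2 higher at 48 h (6 lower and 5 higher as TPM). Tfam, which packages mitochondrial DNA and starts its transcription, was at 46.8 and 45 FPKM in wild-type 2iL and 20.6 and 25.7 in knockout 2iL (-0.96 ± 0.11), and differed by -1.16 ± 0.11 at 48 h. Of 9 tested regulators of mitochondrial gene expression, 6 were lower and 1 higher in each state (4 lower and 1 higher in 2iL, and 3 lower and 2 higher at 48 h, as TPM). Nrf1 was at 63.1 and 60.4 FPKM in wild-type 2iL and 42.4 and 46.8 in the knockout (-0.46 ± 0.05), and Myc at 8.14 and 7.83 FPKM in wild-type 2iL and 3.6 and 3.01 in the knockout (-1.06 ± 0.10). At 48 h Myc was at 13.2 and 15.1 FPKM in wild-type and 14.5 and 12.7 in knockout cells and was not called (-0.06 ± 0.10, limma adjusted p = 0.626). Nrf1 then differed by -0.17 ± 0.05. Differences in this list ran from -0.56 to 0.75 at 48 h, and Mycn had the largest absolute difference among the regulators called.

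The mRNAs that these ribosomes translate were not low. Of the 13 mitochondrially encoded mRNAs, 8 were higher in the knockout in 2iL and 12 at 48 h, and 0 were lower, with medians of 0.39 and 0.62 (0.46 to 0.57 and 0.68 to 0.78 under the other 3 scalings). Their summed level was 9122 and 8763 FPKM in wild-type 2iL, 7232 and 7374 at 48 h, 10634 and 11028 in knockout 2iL and 9607 and 9981 at 48 h. The knockout lay above the wild type within each state. The 2 mitochondrial rRNAs went in opposite directions: mt-Rnr1 was at 105 and 103 FPKM in wild-type 2iL and 28.3 and 28.7 in the knockout (-1.84 ± 0.05), and mt-Rnr2 at 85.5 and 72.4 FPKM in wild-type 2iL and 112 and 106 in the knockout (0.46 ± 0.08). At 48 h mt-Rnr1 was at 94.6 and 99 FPKM in wild-type and 54.6 and 51.5 in knockout cells, a smaller difference of -0.86 ± 0.05 (interaction 0.98 ± 0.06, limma adjusted p = 4.38e-05), and mt-Rnr2 differed by 0.42 ± 0.08. The label gives polyA RNA and the design text total RNA, so how fully transcripts with short or no tails were captured is not known.

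For comparison, 54 of 86 tested cytoplasmic ribosomal protein genes were lower and 5 higher in 2iL (median -0.22), and 71 lower and 4 higher at 48 h (median -0.34). Their split moved with the scale: in 2iL it was 40 lower and 17 higher as TPM and 32 lower and 27 higher after quantile scaling, when that of the mitochondrial family was 49 lower and 8 higher. At 48 h it was 43 lower and 20 higher after quantile scaling. After that scaling 33.7% of all tested genes were lower and 30.1% higher in 2iL, and 39.4% and 33.0% at 48 h. Of 81 tested nuclear genes for oxidative phosphorylation subunits, 58 were lower and 5 higher in 2iL (median -0.28), and 46 lower and 9 higher at 48 h (median -0.22). As TPM these were 42 lower and 15 higher, and 35 lower and 23 higher. In wild-type cells 49 of the 81 fell by 48 h and 3 rose, where 17 of the 77 mitochondrial ribosomal protein genes fell and 16 rose. The differences between these lists were not tested.

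**Figure D5:**
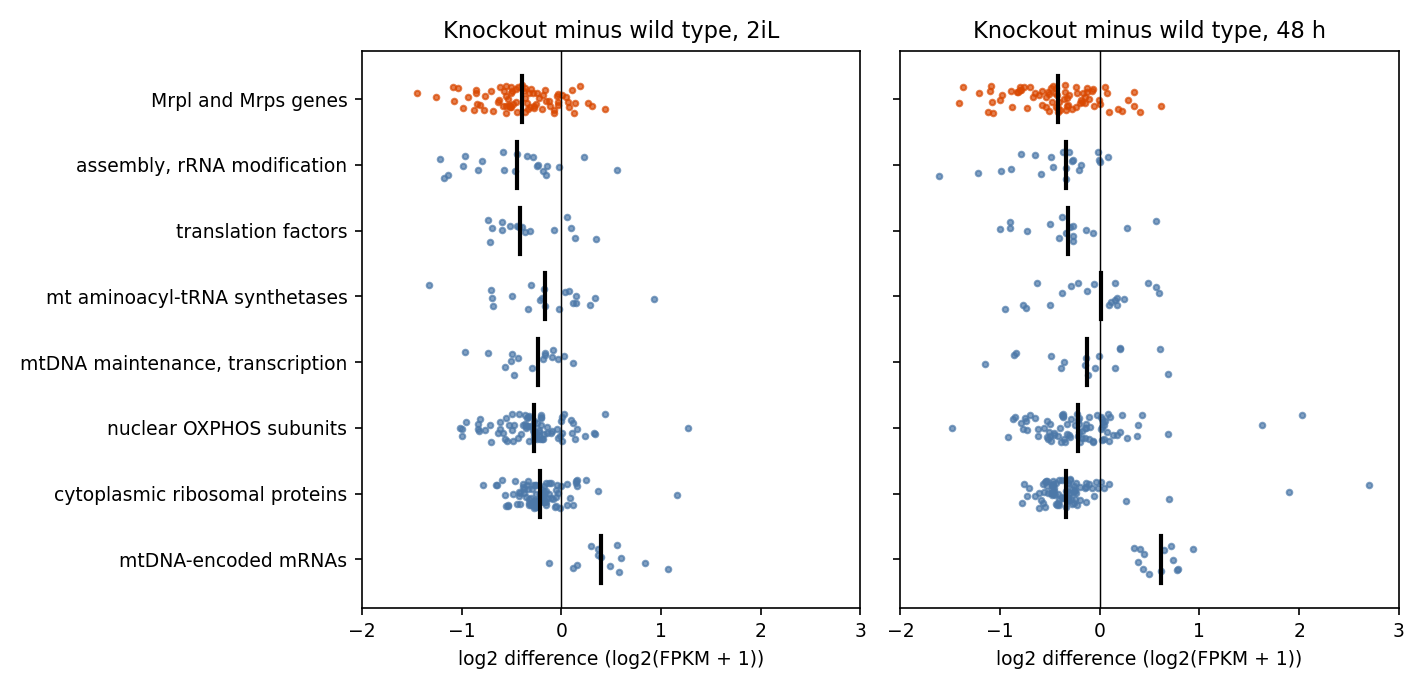
Knockout minus wild-type differences (x axis, log2 of FPKM + 1) of the Mrpl and Mrps genes (orange) and of 7 other lists (blue) in 2iL (left) and at 48 h (right); each point is a gene, with vertical scatter only for visibility, and black bars are list medians. The Mrpl and Mrps medians lie at -0.40 and -0.42, and those of the mitochondrially encoded mRNAs at 0.39 and 0.62.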

How the data were processed

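Bulk RNA of 8 libraries was analysed. Per the submitters' processing notes, STAR 2.5.0 and Cufflinks 2.2.1 were used with mm10; roles and settings are not given in the sources used here, nor is the strand setting. Libraries were made with dUTP, per the labels' protocols. The authors deposited FPKM values for each library in 1 table of 41258 rows. For 56 repeated identifiers the row with the highest mean was kept, which left 41202, and 40071 matched a symbol.

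The 13166 genes that reached 1 FPKM in 2 or more libraries were tested with limma 3.58.1 in R 4.3.3 on log2(FPKM + 1). The model held the 4 group means and an empirical Bayes trend, and gave 5 comparisons with Benjamini-Hochberg adjustment over all tested genes. Fold changes on this scale understate changes of low genes. The model was also run on simulated data in which far fewer genes changed than were called here. That run does not measure the error rate of these comparisons. Absolute depth is unknown, so no counting interval is given. Genes were named by rule: the 5 largest called rises and falls per comparison, the 5 highest and lowest levels, and members fixed by role. Where the libraries of a gene named for its call did not overlap, this describes the values and is no further support. The members and the 18 gene lists were chosen with earlier results of these data known. Alternatives were the pseudocount, filters, 3 scalings, a replicate block and leaving out each library. Small RNA libraries were not used.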

Additional observations from a re-analysis of the deposited data

Results flagged for a closer look

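The change from 2iL to 48 h differed between the genotypes for 18 of the 77 genes by the interaction test of limma (adjusted p below 0.05), and these are listed as a difference between groups under the same contrast. It was higher in the knockout for 8 of them and lower for 10. Among the positive differences, Mrpl45 had 0.57, Mrps31 0.501, Mrps24 0.397, Mrpl39 0.363 and Mrpl4 0.31 on the log2 scale. Among the negative ones, Mrpl27 had -0.595, Mrps23 -0.552, Mrps36 -0.503, Mrpl13 -0.483 and Mrps18a -0.469. The share of members called, with 8 and 10 of 77, lay below the 21.1% and 21.7% of all tested genes. With 2 libraries a group, no group was large enough for a check of single outlying libraries.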

How the results depend on the processing

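The number of members called lower in the knockout stayed within 1.5 times of the reported value under every alternative run (15 for each state), and the median difference stayed negative under the 3 other scalings. The number called higher in 2iL was 10 as TPM, 6 after median-ratio and 8 after quantile scaling, and at 48 h it was 11 as TPM. The shares of all tested genes called higher were 38.9%, 34.3% and 30.1% in 2iL, and 40.7% at 48 h as TPM. The median difference in 2iL was -0.25 as TPM, -0.33 after median-ratio and -0.32 after quantile scaling, and at 48 h it was -0.26, -0.36 and -0.33. For the change to 48 h, quantile scaling gave a wild-type median of 0.0324 and an interaction median of -0.0824. In the knockout the members changed by 48 h numbered 32 as TPM, of which 18 rose, and 33 after median-ratio scaling, of which 23 fell. The cause was not tested.

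Leaving out 1 library at a time gave 48 to 57 lower and 3 to 4 higher in 2iL (51 to 60 in all), and 49 to 58 lower and 4 to 6 higher at 48 h (55 to 64 in all). For the change to 48 h it gave 21 to 38 called in wild-type cells, with 11 to 19 higher and 10 to 19 lower, and 14 to 26 called in the knockout, with 3 to 16 higher and 9 to 22 lower. For the interaction it gave 11 to 21 called, with 3 to 12 higher and 6 to 14 lower. Where a group was left with 1 library, that library was assumed to vary like the other groups.

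Replicate numbers were shared between groups, and deviations of same-numbered libraries correlated at -0.15 to 0.18. Whether same-numbered libraries shared a culture or day is not given, and these correlations cannot settle it. With the replicate block, 54 members were lower and 3 higher in 2iL, 54 lower and 6 higher at 48 h, and the interaction was called for 7 and 10. By 48 h, 14 rose and 15 fell in wild-type cells and 8 rose and 11 fell in the knockout.

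Of 2085 values of single genes under alternatives, over 139 results, 1925 kept their direction and call, 112 lost the call, 48 gained one and 0 changed the direction of a call. With 2 libraries a group and unknown read depth, small differences near the threshold depend on single libraries.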
